A study of Mus musculus with 20 samples.

Results

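A set of 10 genes that load and display peptides on MHC class I molecules were followed through RNA sequencing of mouse cells: H2-K1, H2-D1, B2m, Tap1, Tap2, Tapbp, Nlrc5, Erap1, Pdia3 and Calr. They were taken by symbol from the deposited gene annotation, which names each of them once, and make up 10 of its 43432 genes. All 10 passed the filter on low counts that left 15779 genes for testing. The samples are 20 libraries in 7 groups, all of the strain given as Nude Mouse, grown in DMEM with fetal bovine serum. Of these, 5 groups are cell lines that the labels call malignant transformed, each derived beside SU3, a human glioma stem cell line. C12 is labelled as macrophages transformed in culture with peritoneal washing cells, ih_CTC as a macrophage line from a peritoneal xenograft, and ih_DCTC as a line of dendritic cells from bone marrow cultured with SU3. The ih_BCTC line is labelled as oligodendrocytes recultured from a brain tumour. The ih_STC_BM line is labelled as mesenchymal stem cells, cultured from the tumour of an animal with destroyed and then rebuilt marrow. The remaining 2 groups carry no tumour contact in their labels: MDSC, myeloid-derived immunosuppressive cells, and MSC, mesenchymal stem cells of normal bone marrow, both named as precursor cells in the series' design text. Each group has 3 libraries except MSC, which has 2. The labels mention monoclonal culture and do not say whether libraries of a group came from separate cultures, clones or animals, so p-values measure the spread between libraries, which may be technical.

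An MHC class I molecule is a heavy chain, encoded in mice by genes such as H2-K1 and H2-D1, held together with beta-2-microglobulin, the product of B2m, and a short peptide. Peptides are cut from cytosolic proteins by the proteasome, carried into the endoplasmic reticulum by the transporter made of TAP1 and TAP2, and trimmed there by the aminopeptidase ERAP1. Tapasin (Tapbp), the oxidoreductase ERp57 (Pdia3) and the lectin chaperone calreticulin (Calr) hold the empty molecule at the transporter until a peptide fits. NLRC5 is a transactivator that drives the heavy chain genes, B2m and Tap1 together, and interferon gamma raises much of the same set. Macrophages and dendritic cells display class I at high levels, cytotoxic T cells read it, and natural killer cells respond to cells that have lost it.

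In the deposited annotation, whose build is not named, 5 of the genes lie in the major histocompatibility region of chromosome 17. These are Tapbp (ENSMUSG00000024308, 33915899 to 33929288, plus strand), H2-K1 (ENSMUSG00000061232, 33996017 to 34000333, minus strand), Tap1 (ENSMUSG00000037321, 34187553 to 34197225, plus strand), Tap2 (ENSMUSG00000024339, 34203527 to 34216321, plus strand) and H2-D1 (ENSMUSG00000073411, 35262730 to 35267499, plus strand). On chromosome 2 are Pdia3 (ENSMUSG00000027248, 121413775 to 121438687, plus strand) and B2m (ENSMUSG00000060802, 122147686 to 122153083, plus strand). On chromosome 8 are Calr (ENSMUSG00000003814, 84841850 to 84846934, minus strand) and Nlrc5 (ENSMUSG00000074151, 94472763 to 94527272, plus strand), and Erap1 (ENSMUSG00000021583, 74639872 to 74691875, plus strand) is on chromosome 13.

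Promoter sequence is shown for the heavy chain H2-K1, its partner B2m and the chaperone Calr, since H2-K1 was lower in every line than in both precursor groups, B2m pairs with every heavy chain, and Calr passed in 1 such comparison only. In H2-K1 the capitals mark, in order, a match to the kappa-B consensus (on both strands, in overlapping frames), the core of a cyclic-AMP response element and a CCAAT box on the other strand. In B2m they mark an interferon-stimulated response element, a kappa-B match on the other strand, the cyclic-AMP response element core and a CCAAT box on the other strand. In Calr they mark a kappa-B match on both strands, an endoplasmic reticulum stress element on the other strand, which contains a CCAAT box, and a CCAAT box on the given strand. Sequences are from RefSeq for GRCm38.p6 and read 5′ to 3′ on the gene's strand. Each ends just before the start of the gene in the GENCODE M21 annotation. For H2-K1 that start is 34000347, upstream of 34000333 in the deposited annotation. The names chr17.0, chr2.0 and chr8.0 below stand for chromosomes 17, 2 and 8.
H2-K1, chr17.0:34000348-34000597, minus strand: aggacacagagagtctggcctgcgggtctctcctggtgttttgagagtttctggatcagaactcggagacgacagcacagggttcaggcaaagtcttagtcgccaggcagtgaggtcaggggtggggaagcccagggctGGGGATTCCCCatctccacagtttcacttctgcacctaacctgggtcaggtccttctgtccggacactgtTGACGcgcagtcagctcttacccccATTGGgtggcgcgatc
B2m, chr2.0:122147437-122147685, plus strand: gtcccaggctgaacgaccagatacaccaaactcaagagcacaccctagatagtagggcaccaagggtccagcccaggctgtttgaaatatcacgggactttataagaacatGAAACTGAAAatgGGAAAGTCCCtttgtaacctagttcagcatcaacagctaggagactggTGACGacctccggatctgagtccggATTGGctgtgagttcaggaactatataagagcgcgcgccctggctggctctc
Calr, chr8.0:84846935-84847181, minus strand: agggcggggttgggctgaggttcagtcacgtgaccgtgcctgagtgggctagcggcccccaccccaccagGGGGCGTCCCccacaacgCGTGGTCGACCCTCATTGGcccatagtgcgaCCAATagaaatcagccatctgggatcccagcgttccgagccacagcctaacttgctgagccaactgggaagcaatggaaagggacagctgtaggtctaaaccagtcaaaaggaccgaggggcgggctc
The motifs searched on both strands were CCAAT, GAAANNGAAA for the interferon-stimulated response element, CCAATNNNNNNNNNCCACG for the stress element, which always contains a CCAAT match, TGACG, and the kappa-B consensus, the last one added after the windows had been seen. Over the 250 bases before the start of 32851 RefSeq windows, CCAAT occurred in 33.8%, TGACG in 17.8%, GAAANNGAAA in 2.98%, the stress element in 0.113% and the kappa-B consensus in 7.25%. A kappa-B match was present before H2-K1, H2-D1, B2m and Calr, the interferon element letters before B2m, and the stress element letters before Calr and also before Canx, Hspa5, Hsp90b1 and Pdia6, other genes of protein folding. TGACG was present before H2-K1, H2-D1, B2m, Tap1 and Pdia3. Tap1 lies head to head with Psmb9, an immunoproteasome subunit, and the 300-base windows around their starts share 275 bases. Of the 10 genes, 8 had a window in this table. A match is a description of these letters and no evidence of binding.

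Total expected counts, the estimated read numbers per gene in the deposited table, were 8794777 to 12400640 per library. Levels are given as CPM, counts scaled to a common library size with edgeR's trimmed mean of M values (TMM), so that levels of different genes are compared only after division by exon length (CPM per kb). Introns took 9.64 to 10.4% of reads in MDSC libraries, against 2.07 and 3.09% for MSC and 1.02 to 8.52% over the lines, so this share moves with the groups. The 10 leukocyte markers summed to 6483 to 6567 CPM in MDSC, 2762 to 3967 CPM in MSC and 4.39 to 42.8 CPM over the line libraries. Ptprc, which encodes the common leukocyte antigen CD45, had means of 1556 CPM in MDSC, 214 CPM in MSC and 0.236 to 0.758 CPM in the lines. Leukocyte transcripts were thus present in the MSC libraries, and 7 macrophage markers summed to 3308 to 4280 CPM there against 1938 to 1948 in MDSC. MDSC libraries also held B and T cell markers (1136 to 1197 CPM), erythroid markers (11092 to 11394) and neutrophil markers (32535 to 34913). The 8 mesenchymal markers summed to 2866 to 11530.3 CPM in the lines, 4984 to 5575 in MSC and 22.7 to 24.5 in MDSC. Markers of the labelled cell type were low, and some were at 0, in several lines. In ih_DCTC 7 dendritic cell markers summed to 4.44 to 11.7 CPM. In ih_BCTC 7 oligodendrocyte markers summed to 9.16 to 11.1 CPM, with 3 above 1 CPM on average, while Olig2 and Sox10 were at 0 in every library and Olig1 reached at most 0.0861 CPM. In C12 the 7 macrophage markers summed to 46.7 to 88.7 CPM, with 3 above 1 CPM, and C1qa was at 0 in every library. In ih_CTC the same 7 summed to 97.9 to 111 CPM, with 4 above 1 CPM. The lines are called by their labels throughout. These are bulk samples, so fewer cells of a type and less RNA per cell cannot be told apart, and the part of the cell mixture in the results on MDSC and MSC was not tested.

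**Figure D1:**
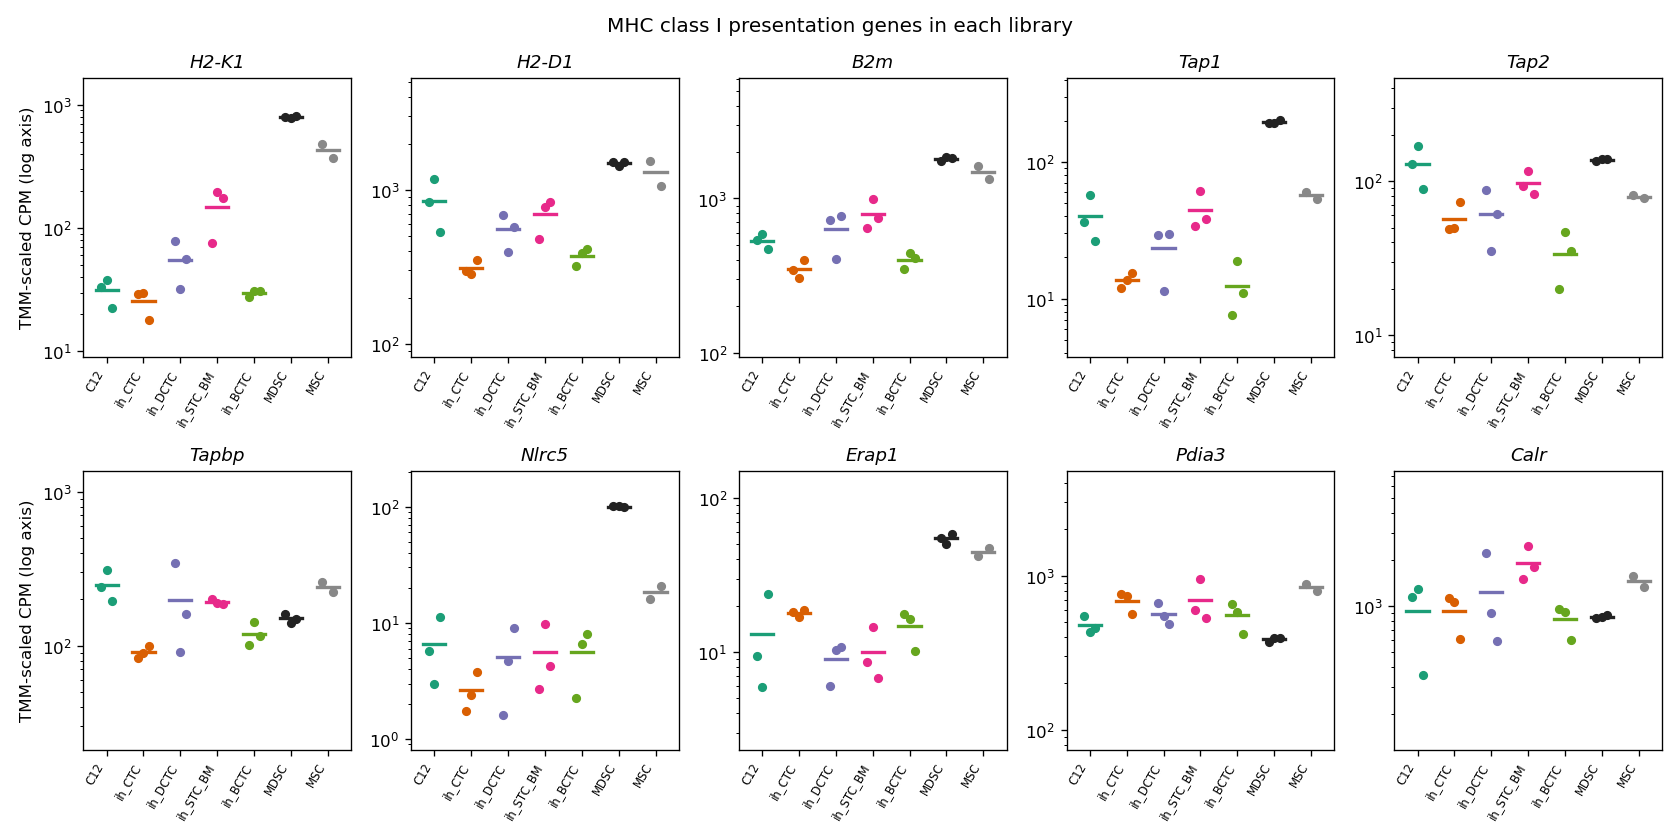
Level of each of the 10 genes in all 20 libraries, as TMM-scaled CPM on a log axis; points are libraries and bars are group means (n = 3, or 2 in MSC). H2-K1 spans 18.2 to 819 CPM with both precursor groups above every line library, whereas Pdia3 spans 370.2 to 956 CPM with MDSC lowest.

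H2-K1 and H2-D1 encode classical heavy chains, the part of the molecule that binds peptide. H2-K1 stood at 797, 777 and 819 CPM in the MDSC libraries and at 483 and 373 in MSC. The C12 libraries had 33.5, 38.2 and 22.6 CPM, those of ih_CTC 29.1, 29.6 and 18.2, and those of ih_BCTC 27.6, 31.2 and 30.9. The ih_DCTC libraries had 77.9, 32.3 and 56.7 CPM and the ih_STC_BM libraries 75.5, 196 and 174. Every line library was below every precursor library, and ih_STC_BM was the highest line, with its lowest library just under the highest of ih_DCTC. In the order MDSC, MSC, ih_STC_BM, ih_DCTC, C12, ih_BCTC, ih_CTC, neighbours differed by the edgeR test between MSC and ih_STC_BM and between ih_STC_BM and ih_DCTC only. The first call was lost with these groups fitted alone (adjusted p = 0.101) and without MSC 1 (0.0596), and the second with these groups alone (0.302) and without ih_DCTC 2 (0.0676).

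Levels of H2-D1 in the lines lay closer to those of the precursor groups. It stood at 1513, 1432 and 1513 CPM in MDSC and at 1539 and 1059 in MSC. C12 had 829.9, 1176 and 534 CPM, ih_STC_BM 479, 773 and 833, and ih_DCTC 692, 394 and 578. The lowest libraries were those of ih_CTC, at 296, 285 and 349 CPM, and of ih_BCTC, at 320.1, 387 and 414. Here C12 overlapped MSC, and no pair of neighbours in the order of group means passed the test. Per kb of exon, H2-D1 had 576 ± 18.1 CPM (SD, n = 3) and H2-K1 272 ± 7.25 in MDSC, against 328 ± 125 and 10.7 ± 2.72 in C12.

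The balance within the pair therefore differed between groups. The count of H2-D1 over that of H2-K1 was 1.90, 1.84 and 1.85 in MDSC and 3.19 and 2.84 in MSC. C12 had ratios of 24.8, 30.8 and 23.6 and ih_CTC 10.2, 9.61 and 19.2. The other lines had 8.88, 12.2 and 10.2 (ih_DCTC), 11.6, 12.4 and 13.4 (ih_BCTC), and 6.35, 3.94 and 4.78 (ih_STC_BM). All 15 line libraries had a higher ratio than all 5 precursor libraries. Among the counts of 17 class I heavy chain genes, H2-D1 made up 39.3 ± 0.469% (SD, n = 3) in MDSC, 59.9 ± 2.61% (n = 2) in MSC and group means of 66.6 to 83.9% in the lines, and H2-K1 21.1 ± 0.117%, 19.9 ± 0.760% and 3.21 to 13.7%. Heavy chain genes are near copies of each other and differ by haplotype, reads can be split among them, and the labels name no H2 haplotype. H2-Ea-ps, a class II gene that is silent in some haplotypes, had 538 ± 23.7 CPM in MDSC, 2.34 ± 0.661 CPM in MSC and line means of 0.0365 to 0.152 CPM, beside the class II regulator Ciita at 107 ± 1.35, 0.384 ± 0.0462 and 0.0287 to 0.183 CPM. The part of haplotype in the ratios was not tested, and single heavy chain values are uncertain for this reason.

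**Figure D2:**
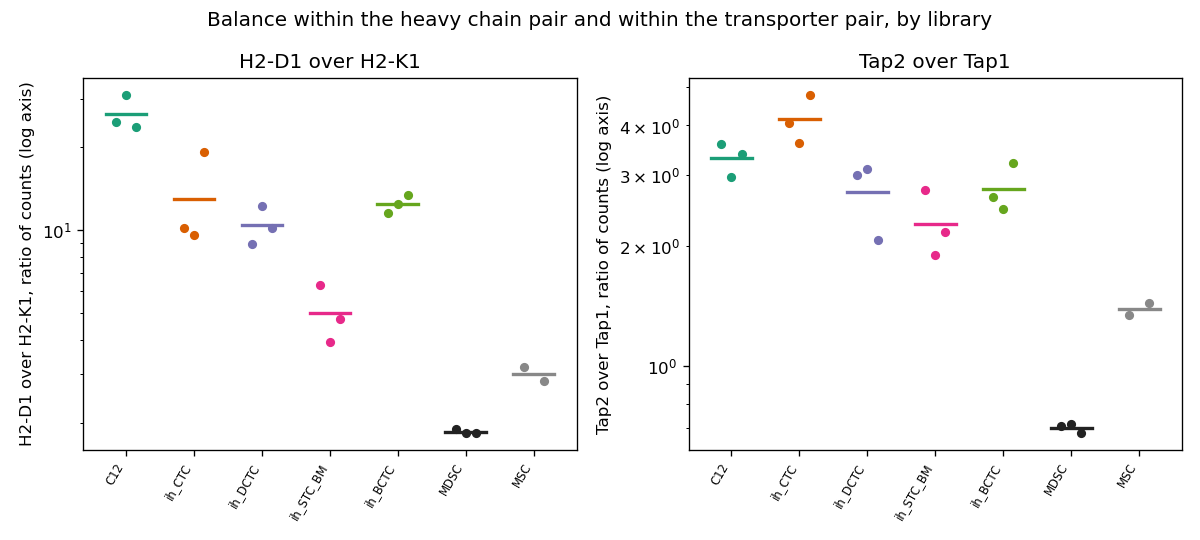
Ratio of the counts of H2-D1 to H2-K1 (left) and of Tap2 to Tap1 (right) in each library on log axes; points are libraries and bars are group means. Both ratios are lowest in MDSC, at means of 1.86 and 0.700, and higher in every line library than in every precursor library.

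B2m encodes the light chain shared by all class I molecules. It stood at 1749, 1856 and 1832 CPM in MDSC and at 1635 and 1328 in MSC. It was 639.9, 987 and 746 CPM in ih_STC_BM, 729.7, 405 and 774 in ih_DCTC, and 536, 587 and 469 in C12. ih_BCTC had 347, 440.4 and 409 CPM and ih_CTC 343, 305 and 397. Every line library was below every precursor library, and ih_STC_BM lay above C12, which lay above ih_BCTC and ih_CTC, while ih_DCTC overlapped all of these but ih_CTC. Per kb, B2m was 1.96 to 3.15 times the sum of H2-K1 and H2-D1 as a group mean, with 2.49 ± 0.133 in MDSC within that range.

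Tap1 and Tap2 encode the subunits of the peptide transporter. Tap1 stood at 192, 194 and 204 CPM in MDSC but at 60.4 and 53.9 in MSC. The lines had 36.2, 57.5 and 26.3 CPM (C12), 33.8, 61.3 and 38.3 (ih_STC_BM), 29.1, 11.3 and 29.6 (ih_DCTC), 13.7 ± 1.70 as a mean (ih_CTC, SD, n = 3) and 7.51, 18.8 and 10.9 (ih_BCTC). MDSC stood above all other libraries, and C12 and ih_STC_BM each overlapped MSC. Tap2 was more even, at 136, 139 and 139 CPM in MDSC and 81.1 and 77.5 in MSC. It stood at 129.9, 170.3 and 89.2 CPM in C12, 93.0, 116 and 83.0 in ih_STC_BM, 87.8, 35.1 and 61.2 in ih_DCTC, 48.8, 49.4 and 73.4 in ih_CTC, and 19.8, 46.6 and 35.2 in ih_BCTC. C12 overlapped MDSC, and ih_STC_BM lay wholly above MSC. The ratio of Tap2 to Tap1 counts was 0.700 ± 0.0180 (SD, n = 3) in MDSC, 1.39 ± 0.0672 (n = 2) in MSC and 1.89 to 4.76 over the 15 line libraries, without overlap between lines and precursors.

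Tapbp encodes tapasin, which bridges the heavy chain and the transporter. It had 161, 140.1 and 149 CPM in MDSC, 257 and 222 in MSC, and 242, 308 and 194 in C12. ih_STC_BM had 199.5, 190.1 and 185 CPM, ih_BCTC 101, 142 and 116, and ih_CTC 83.5, 90.1 and 98.8. The ih_DCTC libraries spread over 342, 90.7 and 159 CPM. The highest library of all 20 is thus one of ih_DCTC, and another of its libraries lies within the range of ih_CTC.

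Erap1, the trimming peptidase, and Nlrc5, the transactivator, were the members with the lowest levels per kb in MDSC, at 7.52 ± 0.537 and 11.8 ± 0.0698 CPM per kb (SD, n = 3). Erap1 stood at 55.3, 50.6 and 58.4 CPM in MDSC, 42.1 and 47.1 in MSC, and 5.92 to 23.8 over the line libraries, the highest being a C12 library. Nlrc5 stood at 100.4, 100.3 and 99.3 CPM in MDSC, 16.1 and 20.8 in MSC, and 1.62 to 11.1 over the line libraries, again with a C12 library highest. For both genes every line library was below every precursor library.

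Pdia3 and Calr, which also fold glycoproteins outside the class I pathway, kept to another pattern. Pdia3 had its lowest levels in MDSC, at 370.2, 397 and 395 CPM, and its highest group mean in MSC, at 883 and 801 CPM, with lines between 422 and 956. Calr stood at 832, 851 and 873 CPM in MDSC and 1577 and 1329.9 in MSC. Calr varied more within lines: C12 had 1138, 1296 and 360 CPM, ih_CTC 1122, 1071 and 616, ih_DCTC 2221, 901 and 590.2, ih_STC_BM 1499.7, 2439 and 1802, and ih_BCTC 962, 911 and 606. Its line libraries lie on both sides of MDSC.

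The comparison of C12 with MDSC asked how a macrophage-labelled line differs from myeloid precursors. In C12, 6 of the 10 genes were lower and 0 higher at an adjusted p under 0.05 (edgeR quasi-likelihood test, Benjamini-Hochberg over all 15779 genes), where 30.5% of all genes were lower and 31.3% higher. The count of higher members was 1 at an unadjusted p under 0.05 and 0 by DESeq2 and by limma-voom. H2-K1 fell by 4.67 on the log2 scale (SE 0.41, a 25.4-fold lower level, adjusted p = 3.7e-08) and Nlrc5 by 3.91 (SE 0.64). Tap1 fell by 2.30, Erap1 by 2.06 and B2m by 1.77, each with an adjusted p of at most 4.2e-04. H2-D1 fell by 0.81 (95% interval of the log2 fold change -1.46 to -0.16), with an adjusted p of 0.0293. Tap2 (log2 fold change -0.09, interval -0.80 to 0.63), Tapbp (0.72), Pdia3 (0.30) and Calr (0.13) did not pass, although Tapbp passed as higher under upper quartile scaling, with these groups fitted alone and without C12 3 (adjusted p 0.0179 to 0.046). The median log2 fold change was -1.29 for the 10 genes and 0.03 for all tested genes. The H2-D1 call was lost under upper quartile scaling, without a filter, with these 2 groups fitted alone and without C12 1, C12 3 or any 1 of the MDSC libraries (adjusted p 0.0512 to 0.141). With the intron share as a covariate Erap1 was at -0.68 (adjusted p = 0.227) and Nlrc5 at -1.82 (adjusted p = 0.039), and without the 2 C12 libraries under 3% intron share, which leaves 1 C12 library, Calr was lower at -1.23 (adjusted p = 0.014) and 7 genes were lower.

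In ih_CTC against MDSC, 7 of 10 genes were lower and 1 higher, where 27.1% of all genes were lower and 28.2% higher. Nlrc5 fell by 5.24 on the log2 scale (SE 0.69, 37.9-fold lower, edgeR adjusted p = 5.1e-06) and H2-K1 by 4.96 (SE 0.41, 31.1-fold lower). Tap1 fell by 3.85, B2m by 2.38, H2-D1 by 2.26, Erap1 by 1.62 and Tap2 by 1.27. Pdia3 rose by 0.83 (interval 0.28 to 1.38, adjusted p = 0.0121), and its 3 ih_CTC libraries lay above the 3 of MDSC. Tapbp had -0.73 (adjusted p = 0.0786) and passed as lower under RLE scaling, DESeq2, the intron covariate, a fit of these groups alone and without the low-intron line libraries (adjusted p 9.2e-05 to 0.0413). None of those low-intron libraries belong to ih_CTC or MDSC. Calr was at 0.14 (interval -0.84 to 1.11). The median was -1.94 against 0.08 over all tested genes.

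In ih_DCTC against MDSC, 7 of 10 genes were lower and 0 higher, where 28.1% of all genes were lower and 31.2% higher. The count of higher members by edgeR at an unadjusted p under 0.05 was 1 and was 0 by DESeq2 and limma-voom. Nlrc5 fell by 4.27 (SE 0.65, 19.3-fold lower), H2-K1 by 3.84 (SE 0.39, 14.3-fold lower), Tap1 by 3.08 and Erap1 by 2.59 on the log2 scale. B2m fell by 1.51, H2-D1 by 1.42 and Tap2 by 1.17, the last with the highest edgeR adjusted p of the 7, 0.00748. Tapbp (0.40), Pdia3 (0.55) and Calr (0.54) did not pass, although Pdia3 passed as higher under upper quartile scaling, with the intron covariate and with these groups fitted alone (adjusted p 0.0162 to 0.0484). Without ih_DCTC 1, Tapbp was at -0.27 and Calr at -0.20, and without ih_DCTC 2 Tapbp passed as higher at 0.74 (adjusted p = 0.0368). The median was -1.47 against 0.09 over all tested genes. All comparisons with MDSC share its 3 libraries, and those with MSC share its 2.

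The comparison of ih_STC_BM with MSC set the mesenchymal-labelled line beside cells of the same label. Of the 10 genes, 4 were lower and 0 higher, where 17.4% of all genes were lower and 14.8% higher, and the count of higher members was also 0 at an unadjusted p under 0.05 and by DESeq2 and limma-voom. Erap1 fell by 2.15 on the log2 scale (SE 0.45, 4.44-fold lower, edgeR adjusted p = 0.00145) and H2-K1 by 1.53 (SE 0.38, 2.88-fold lower, adjusted p = 0.00559). B2m fell by 0.91 (adjusted p = 0.0233) and H2-D1 by 0.90 (adjusted p = 0.0493). Nlrc5 was at -1.71 (adjusted p = 0.0517), Tap1 at -0.36, Tap2 at 0.30, Tapbp at -0.32, Pdia3 at -0.27 and Calr at 0.40. The macrophage markers that summed to 3308 to 4280 CPM in MSC summed to 33.3 to 50.3 CPM in ih_STC_BM, and their part in these differences was not tested. H2-D1 lost its call under upper quartile scaling, without a filter, with the intron covariate, with these groups alone and without ih_STC_BM 1, ih_STC_BM 3, MSC 1 or MSC 2 (adjusted p 0.0543 to 0.344). B2m lost it without a filter, without the low-intron line libraries, with these groups alone and without ih_STC_BM 1, ih_STC_BM 3 or MSC 1 (adjusted p 0.0545 to 0.241). Without MSC 1 the number lower was 1, as in a fit of these 2 groups alone, and without ih_STC_BM 1 or ih_STC_BM 3 it was 2. Nlrc5 passed by DESeq2, limma-voom, RLE scaling and the intron covariate and without ih_STC_BM 2.

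For ih_BCTC the labels name no precursor, and MSC served as its reference. Of the 10 genes, 8 were lower and 0 higher, where 20.8% of all genes were lower and 15.9% higher, and no member was higher at an unadjusted p under 0.05 or by DESeq2 or limma-voom. H2-K1 fell by 3.84 (SE 0.41, 14.3-fold lower, edgeR adjusted p = 1.2e-06), Tap1 by 2.20, B2m by 1.89, H2-D1 by 1.80, Nlrc5 by 1.72, Erap1 by 1.60 and Tap2 by 1.23 on the log2 scale, and Tapbp was lower with an adjusted p of 0.0422. Pdia3 (-0.60) and Calr (-0.81) did not pass. Both passed as lower with these groups fitted alone and without the low-intron line libraries (edgeR adjusted p 0.0101 to 0.0242). None of those low-intron libraries belong to ih_BCTC or MSC, so that fit kept every library of both groups. Pdia3 also passed as lower by DESeq2 and with the intron covariate. Tapbp lost its call under upper quartile scaling, without a filter and with the intron covariate (edgeR adjusted p 0.0596 to 0.164). Nlrc5 lost its call under upper quartile scaling and without a filter (edgeR adjusted p 0.0526 and 0.0612). The number lower was 5 without ih_BCTC 1, 5 without MSC 1 and 4 without MSC 2, with Tap2, Tapbp and Nlrc5 among those lost each time. Here too the macrophage markers, at 33.7 to 68.8 CPM in ih_BCTC, move with the comparison.

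Each line was also set against the precursor group not paired with it above. Against MSC, C12 had 4 of the 10 genes lower (18.4% of all genes were lower and 14.7% higher), ih_CTC 7 (19.9% lower and 14.7% higher) and ih_DCTC 6 (18.1% lower and 16% higher). Against MDSC, ih_STC_BM had 6 lower (29.4% of all genes) and ih_BCTC 7 (27.3% lower and 28.7% higher). The 4 genes lower in C12 were H2-K1, B2m, Erap1 and Pdia3. H2-K1, B2m and Erap1 were lower in each of these 5 comparisons, H2-K1 with log2 fold changes of -4.74 to -2.42. Higher members were found in ih_STC_BM against MDSC alone, where Calr rose by 1.17 and Pdia3 by 0.85 and 32.3% of all genes were higher. Pdia3 lost its call without ih_STC_BM 2, and Calr under RLE scaling, with the intron covariate and without ih_STC_BM 2, ih_STC_BM 3 or any 1 of the MDSC libraries. Against MSC, Pdia3 in C12 (-0.82) lost its call under upper quartile scaling, without a filter, with the groups alone and without C12 2, C12 3, MSC 1 or MSC 2 (adjusted p 0.0659 to 0.168), and Erap1 in C12 with the groups alone (adjusted p = 0.07). Erap1 in ih_CTC lost its call with any 1 library of either group left out, and Tapbp in ih_CTC with the intron covariate or without MSC 1. In ih_DCTC against MSC, H2-D1, B2m, Tap1 and Nlrc5 lost their calls with the groups alone, H2-D1 without MSC 1, Tap1 without ih_DCTC 2, MSC 1 or MSC 2, and Nlrc5 without a filter, ih_DCTC 1, ih_DCTC 2, MSC 1 or MSC 2. In the other 4 no member was higher by edgeR, at an unadjusted p under 0.05, by DESeq2 or by limma-voom.

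The 2 precursor groups were compared with each other, and in MDSC 2 of the 10 genes were higher and 1 lower. These counts did not exceed the shares of all genes, of which 20.4% were higher and 25.6% lower. Nlrc5 was higher in MDSC by 2.43 on the log2 scale (SE 0.70, edgeR adjusted p = 0.00878) and Tap1 by 1.78 (SE 0.45, adjusted p = 0.00387). Pdia3 was lower, at -1.12 (adjusted p = 0.00401). H2-K1 was at 0.90 (adjusted p = 0.0750), Tap2 at 0.80, Erap1 at 0.30, B2m at 0.29 and H2-D1 at 0.19. Nlrc5 was at 0.08 (adjusted p = 0.958) with the intron share as a covariate, and its call was also lost without MSC 1 (adjusted p = 0.0854). A fit of these groups alone called 6 members higher and 3 lower. The shares of all genes called in that fit are not given, so these counts have no background beside them.

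**Figure D3:**
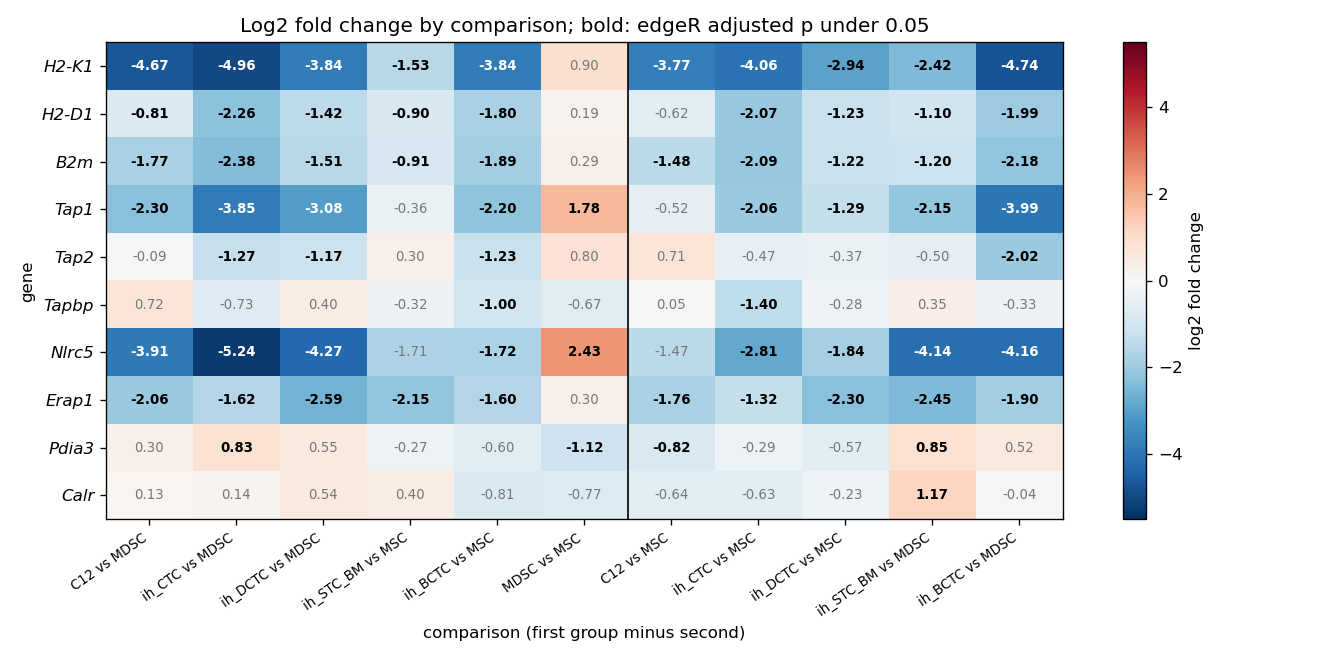
Log2 fold changes of the 10 genes in the 6 main comparisons (left of the line) and the 5 against the other precursor group (right), first group minus second; red is higher, blue is lower, and bold values had an edgeR adjusted p under 0.05. H2-K1, B2m and Erap1 are lower in every comparison of a line with a precursor group, and Calr passes in 1 comparison.

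Among the lines the heavy chains, B2m, the transporter and tapasin varied and the rest did not pass. A test of any difference among the 5 lines passed for 6 of the 10 genes, H2-K1, H2-D1, B2m, Tap1, Tap2 and Tapbp, where 33.2% of all genes passed. Nlrc5, Erap1, Pdia3 and Calr did not pass (edgeR adjusted p 0.170 to 0.423). The ih_STC_BM line was higher than ih_BCTC in 5 genes (11.3% of all genes were higher and 9.02% lower), led by H2-K1 at 2.31 and Tap1 at 1.84, and ih_CTC was lower than ih_STC_BM in 5 (10.8% lower and 7.45% higher), with H2-K1 at -2.54. Against ih_STC_BM, H2-K1 was also lower in C12 (-2.24, the single member lower, where 3.07% of all genes were lower and 4.46% higher) and in ih_DCTC (-1.42, the single member, where 4.16% were lower and 6.78% higher). C12 was higher in H2-D1, Tap1, Tap2 and Tapbp than ih_CTC (by 1.45, 1.54, 1.18 and 1.45, where 9.6% of all genes were higher and 6.9% lower) and than ih_BCTC (by 1.18, 1.68, 1.94 and 1.05, where 11.5% were higher and 8.5% lower). Against ih_DCTC, C12 was higher in Tap2 (1.08, where 5.69% were higher and 6.52% lower). Several of these calls were lost with 1 library left out. For C12 against ih_CTC this was so for Tap1 (without C12 2, ih_CTC 1 or ih_CTC 2) and Tap2 (without C12 1, C12 2, ih_CTC 1 or ih_CTC 2), and for C12 against ih_BCTC for H2-D1 (without C12 2 or ih_BCTC 1) and Tapbp (without C12 1, C12 2 or any library of ih_BCTC). Tap2 in C12 against ih_DCTC was lost without C12 1, C12 2, ih_DCTC 2 or ih_DCTC 3, and H2-K1 in ih_DCTC against ih_STC_BM without ih_DCTC 2. In ih_STC_BM, H2-D1 was lost against ih_CTC (without ih_CTC 1 or 2) and against ih_BCTC (without ih_STC_BM 2 or 3 or any library of ih_BCTC), Tapbp against ih_CTC (without any library of ih_CTC, ih_STC_BM 1 or ih_STC_BM 3) and B2m against ih_BCTC (without ih_BCTC 1). With the 2 groups fitted alone, H2-K1 lost its call in C12 (adjusted p = 0.0632) and ih_DCTC (adjusted p = 0.302) against ih_STC_BM, H2-D1, B2m and Tapbp in ih_CTC against ih_STC_BM, H2-D1, B2m and Tap2 in ih_STC_BM against ih_BCTC, and Tap2 in C12 against ih_DCTC. Without line libraries under 3% intron share, which leaves 1 C12 library, C12 lost H2-D1, Tap1 and Tap2 against ih_CTC, H2-D1, Tap1 and Tapbp against ih_BCTC, and Tap2 against ih_DCTC. With the intron covariate C12 lost Tap2 and Tapbp against ih_CTC and Tapbp against ih_BCTC, and Tapbp was lost in ih_CTC against ih_STC_BM. Without a filter Tap2 was lost in C12 against ih_DCTC, Tapbp in ih_CTC against ih_STC_BM and H2-D1 in ih_STC_BM against ih_BCTC.

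In 3 pairs of lines edgeR called no member. Between ih_CTC and ih_DCTC, where 2.68% of all genes were higher and 5.53% lower, 1 member was higher and 4 lower at an unadjusted p under 0.05, DESeq2 called 4 lower and limma-voom 1. Between ih_CTC and ih_BCTC (3.38% higher and 2.91% lower) 1 member was higher at an unadjusted p under 0.05, and DESeq2 and limma-voom called 0. Between ih_DCTC and ih_BCTC edgeR called 0 of all 15779 genes (0% in each direction). Here 5 members were higher at an unadjusted p under 0.05, and DESeq2 and limma-voom called 0 members. The shares of all genes at an unadjusted p under 0.05, by DESeq2 and by limma-voom are not given. The member counts at those settings therefore cannot be read as a shift particular to the members.

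Within C12, ih_DCTC and ih_STC_BM, levels of some members also moved with the intron share. The 5 line libraries under 3% intron share (C12 1, C12 2, ih_DCTC 1, ih_STC_BM 1 and ih_STC_BM 3) had Nlrc5 at 1.62 to 5.71 CPM and Erap1 at 5.92 to 9.45, where the other C12, ih_DCTC and ih_STC_BM libraries had Nlrc5 at 4.66 to 11.1 and Erap1 at 10.3 to 23.8. Calr was 1138 to 2221 CPM in these 5 libraries, against 360, 901 and 590.2 CPM in C12 3, ih_DCTC 2 and ih_DCTC 3 but 2439 in ih_STC_BM 2, the library with the highest intron share of the lines. The ih_CTC libraries, at 6.1 to 7.32% intron share, had low Nlrc5 as well, at 1.73 to 3.77 CPM, with Erap1 at 16.8 to 18.7. Those of ih_BCTC, at 5.62 to 6.63%, had Nlrc5 at 2.25 to 7.96 CPM and Erap1 at 10.2 to 17.6. The part of the intron share in these levels was not tested beyond the fits given above.

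**Figure D4:**
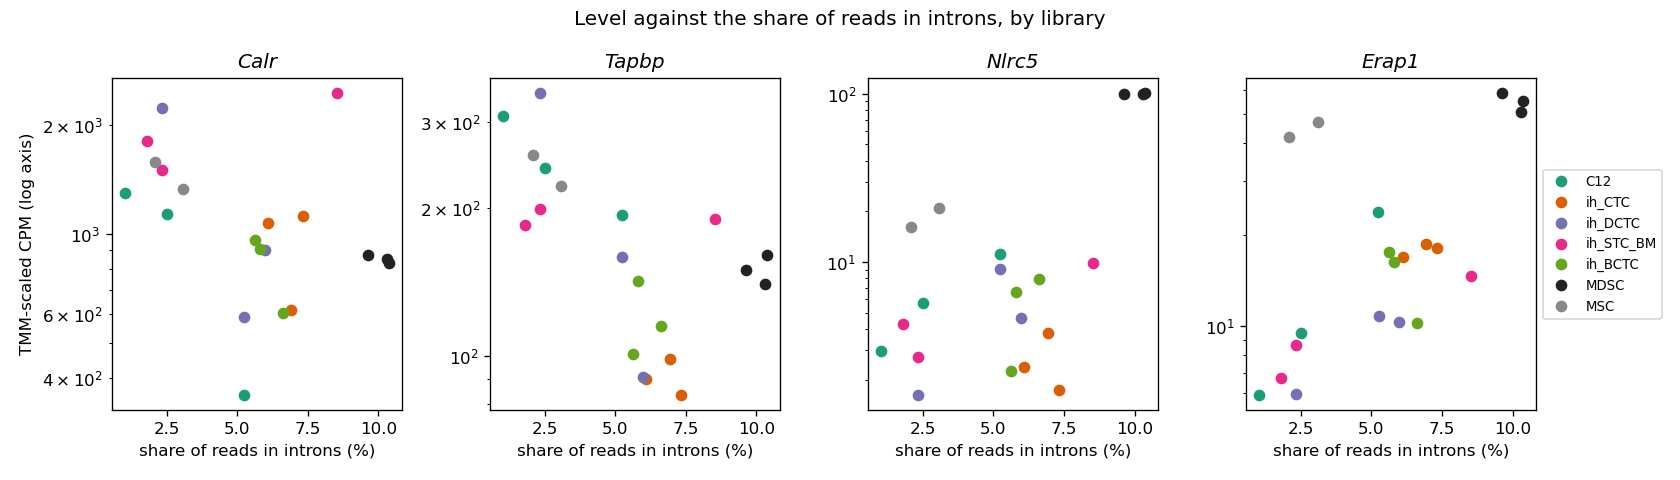
Level of Calr, Tapbp, Nlrc5 and Erap1 (TMM-scaled CPM, log axis) against the share of reads in introns (percent) in each of the 20 libraries, coloured by group. MDSC lies at 9.64 to 10.4% and MSC at 2.07 and 3.09%, so intron share and group are tied for the precursors.

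The other genes of the pathway were read from lists. In the 5 comparisons of lines used here (C12, ih_CTC and ih_DCTC against MDSC, then ih_STC_BM and ih_BCTC against MSC), 30.5, 27.1, 28.1, 17.4 and 20.8% of all genes were lower and 31.3, 28.2, 31.2, 14.8 and 15.9% higher, and each list's count stands beside these shares. Of 11 tested further heavy chain genes, 9 were lower in C12, 10 in ih_CTC and 10 in ih_DCTC against MDSC, and 6 in ih_STC_BM and 8 in ih_BCTC against MSC. The only one higher in these 5 comparisons was H2-T10, in ih_STC_BM, at 25.2 ± 2.09 CPM (SD, n = 3) against 8.91 ± 3.16 (n = 2) in MSC. The most abundant of them, H2-Q4, stood at 583 ± 10.6 CPM in MDSC, 106 ± 0.931 in MSC and means of 7.85 to 40.3 in the lines. H2-T23, which encodes the Qa-1 molecule read by natural killer cell receptors, had 224 ± 4.80, 118 ± 30.9 and 7.96 to 39.8 CPM. H2-T22 was lower in 4 of the 5, with -0.44 in ih_STC_BM. MDSC had 7 of the 11 higher than MSC, where 20.4% of all genes were higher and 25.6% lower. Medians of the 11 were -5.44, -5.45, -3.91, -1.40 and -3.04 in the 5 comparisons of lines, against 0.03, 0.08, 0.09, 0.02 and 0.04 over all tested genes.

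The immunoproteasome replaces catalytic subunits of the standard proteasome and favours peptides that fit class I. Of its 5 genes with its activator, 2, 3, 3, 2 and 4 were lower in those 5 comparisons in that order: Psmb8 and Psmb9 each time, Psmb10 in ih_CTC, ih_DCTC and ih_BCTC, and Psme2 in ih_BCTC. Psmb8 stood at 128 ± 6.79 CPM in MDSC, 131 ± 0.0292 in MSC and 3.31 to 47.5 as line means. Psmb9, which shares its start region with Tap1, had log2 fold changes of -2.26, -4.26, -3.58, -2.15 and -3.81, beside Tap1 values of -2.30, -3.85, -3.08, -0.36 and -2.20. The activator subunit gene Psme1 did not pass in any of the 5 (-0.67 to 0.15), and Psme2 was at -1.26 in ih_BCTC.

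Interferon receptors and their kinases relay the signal that induces class I genes. The list of 9 genes read here also holds the transcription factor genes Stat2 and Irf9. Of these 9, 8 were lower in C12, 8 in ih_CTC, 7 in ih_DCTC, 7 in ih_STC_BM and 7 in ih_BCTC. The receptor chain gene Ifnar1 was lower in all 5 (-1.72, -1.16, -1.16, -1.89 and -1.34), and the kinase gene Jak1 in all but ih_BCTC (-0.07). Ifnar2, the partner chain, was lower in both comparisons with MSC (-1.29 and -1.66) and did not pass against MDSC. Of 13 transcriptional regulators of class I, 9 were lower in C12, 6 in ih_CTC, 6 in ih_DCTC, 1 in ih_STC_BM and 5 in ih_BCTC, and 2 were higher in ih_BCTC. Their medians were -1.19, -0.69, -0.63, 0.24 and -0.10 in that order. Irf1, an interferon-induced factor, stood at 401 ± 3.90 CPM in MDSC, 55.6 ± 4.76 in MSC and 40.5 to 111 as line means, lower in the 3 comparisons with MDSC and not in those with MSC (0.97 and -0.46). The pair higher in ih_BCTC were Nfkb1 (1.43) and Rfxank (0.87). Rela, which encodes a subunit of NF-kappa-B, was lower in ih_CTC (-0.69) and did not pass in the other 4.

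Lists of folding genes of the endoplasmic reticulum and of molecules with a class I fold but other roles held genes called in both directions. Of 12 folding genes, Ganab, Pdia6 and Prkcsh were higher in each comparison with MDSC (0.60 to 1.86), P4hb also in C12 (1.05), and Ganab and Hspa5 in ih_STC_BM (0.83 and 1.33). Hspa5, which encodes the chaperone BiP, was lower in C12 (-1.34) and ih_CTC (-0.96), Uggt1 in ih_DCTC (-0.60), and Dnajb11 and Sdf2l1 in ih_BCTC (-1.15 and -2.04). Hsp90b1 did not pass in any of the 5. Of 6 other trimming proteases, Blmh, Lap3 and Thop1 were higher in each comparison with MDSC and Lnpep was lower, as was Tpp2 in C12 (-1.34), and Lap3 (0.90) and Npepps (1.27) were higher in ih_STC_BM. Of 5 class I-like genes, Mr1, Fcgrt and Procr were higher in each of the comparisons with MDSC, where Cd1d1 was lower. Against MSC, Procr was higher and Cd1d1 and Hfe were lower in both ih_STC_BM and ih_BCTC, and Fcgrt was lower in ih_BCTC (-2.35). Procr, the endothelial protein C receptor, stood at 3.11 ± 0.133 CPM in MDSC, 18.3 ± 10.4 in MSC and 45.6 to 69.3 as line means. Among 4 tested ligands of the natural killer receptor NKG2D, Raet1d and Raet1e were higher in the 3 comparisons with MDSC, and Raet1e in those with MSC (2.24 and 2.94), while Ulbp1 did not pass in any of the 5. Raet1e was at 0.189 ± 0.0723 CPM in MDSC, 1.68 ± 0.270 in MSC and 5.89 to 13.3 as line means, and the Raet1 genes are near copies whose reads can be shared.

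**Figure D5:**
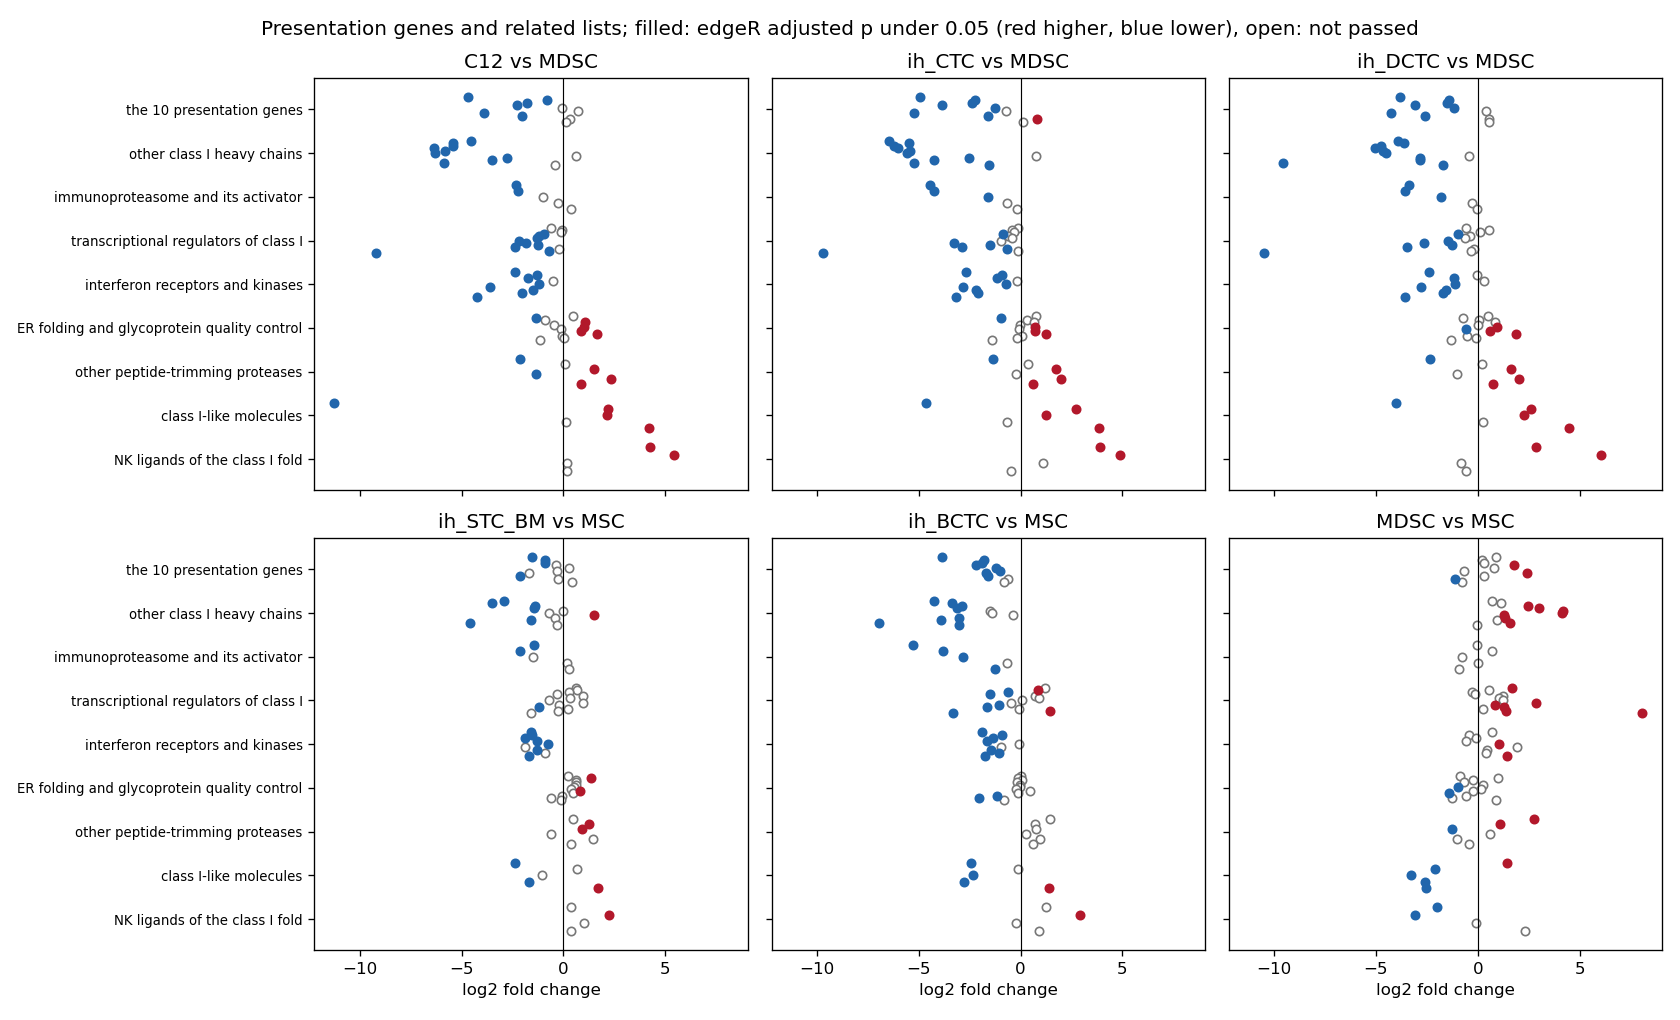
Log2 fold changes of the 10 presentation genes and of 8 lists of related genes in the 6 main comparisons; each point is a gene, filled where the edgeR adjusted p was under 0.05 (red higher, blue lower) and open otherwise. All filled points of the immunoproteasome and interferon lists lie left of 0 in the 5 line comparisons, and class I-like molecules lie on both sides.

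Over the 7 group means of log2 CPM, the members closest to each other were H2-K1 and B2m (Pearson r = 0.98) and the least alike were Nlrc5 and Pdia3 (r = -0.45). With 7 points, of which both precursor groups are high for most members, these values are descriptions. Among 9554 tested genes with at least 20 CPM in their highest group, those most like H2-K1 were B4galnt1, Flcn and Tk2 (r = 0.996, 0.993 and 0.991), and those most like B2m were Neu1, Orai1 and Tk2 (r = 0.999, 0.990 and 0.989). Most like Nlrc5 were Gpr132, Scrn3 and Paqr9 (r = 0.991, 0.990 and 0.989). Most like Calr were Cog2, Mdp1 and Tmed9 (r = 0.979, 0.959 and 0.949). Computed over the 20 libraries in place of the group means, the genes most alike moved for 3 of these 4 members.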

How the data were processed

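The members and gene lists were chosen with earlier results of these data known. RNA was taken up in TRIzol and made into TruSeq libraries, per the labels' protocols. STAR, RSEM 1.2.26 and DESeq2 appear in the submitters' processing notes, with no roles. No source used here names the genome build. The deposited table holds expected counts per gene, 8.37% of them not whole, which were rounded here. A deposited quality table gives each library's percent of reads in introns. Positions in the deposited annotation equalled GENCODE M21 for 33460 of 42462 shared identifiers, including 6 of the 10 members, and exon lengths came from GENCODE M21. Groups follow the labels, and replicate numbers only name libraries.

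Counts were scaled by TMM in edgeR 4.0.16 (R 4.3.3) and filtered by filterByExpr (minimum count 10, minimum total 15). A robust quasi-likelihood model of 7 group means, with 13 residual degrees of freedom, gave 21 pairwise comparisons, two-sided, with Benjamini-Hochberg adjustment over 15779 genes within each. Fold changes, SEs and 95% intervals come from that fit. Shares of all genes also come from it, at an adjusted p under 0.05. They are not given for unadjusted p-values, other tools or alternative fits. All members were named by rule, and from each list the 3 genes of highest mean CPM plus any 3 or fewer that passed in a direction. Ciita and H2-Ea-ps were named after their values were seen. Likeness was computed on log2 CPM with a prior count of 2, and a prior count of 0.5 gave the same outcome for all 4 members looked at. The alternatives tried were scaling by RLE or by upper quartile, leaving out the filter, DESeq2 1.42.0, limma-voom (limma 3.58.1), the compared groups alone, the intron share as covariate, leaving out line libraries under 3% intron share, and leaving out each library. The test was checked on simulated data. Protein sequences and the promoters of Tap2 and Nlrc5 were not used here. The promoter windows of H2-D1, Tap1, Tapbp, Erap1 and Pdia3 overlap annotated exons and are not printed. A result on the list of regulators is not reported here.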

Additional observations from a re-analysis of the deposited data

Results flagged for a closer look

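The effects of 2 lines against the same MDSC libraries differed for 5 values by the edgeR test of the difference itself. C12 stood above ih_CTC on the log2 scale by 1.45 for H2-D1, 1.54 for Tap1, 1.18 for Tap2 and 1.45 for Tapbp (adjusted p 0.00464 to 0.0266). It stood above ih_DCTC by 1.08 for Tap2 (adjusted p = 0.0476). These 5 values were picked by that same test. Of all genes, 9.6% were higher in C12 than in ih_CTC and 5.69% than in ih_DCTC. The Tap1 and Tap2 calls were lost with single libraries left out, as given above. Without line libraries under 3% intron share, which leaves 1 C12 library, the differences from ih_CTC were 0.81 for H2-D1 (adjusted p = 0.0508), 0.97 for Tap1 (0.177) and 0.66 for Tap2 (0.272), and that from ih_DCTC was 0.95 for Tap2 (0.165). With the intron share as a covariate, Tap2 (adjusted p = 0.104) and Tapbp (0.0616) did not pass against ih_CTC.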

How the results depend on the processing

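H2-K1, B2m, Tap1 and Nlrc5 stayed lower than in MDSC, with an adjusted p under 0.05, in C12, ih_CTC and ih_DCTC in every alternative run. Where counts or directions moved, the cause was not tested. Members higher in C12 against MDSC numbered 1 under upper quartile scaling and with these groups alone, and 0 to 1 with 1 library left out. In ih_DCTC against MDSC they numbered 1 under upper quartile scaling, the intron covariate and these groups alone, and 0 to 1 with 1 library left out. Members lower in ih_STC_BM against MSC numbered 2 without a filter, 1 with these groups alone and 1 to 5 with 1 library left out, and in ih_BCTC against MSC 4 to 7. In MDSC against MSC the numbers higher and lower were 1 and 2 with the intron covariate. Without line libraries under 3% intron share, none of which are MDSC or MSC, they were 4 and 3. With these groups alone they were 6 and 3, and 1 to 2 were higher with 1 library left out. The shares of all genes called in these alternative runs are not given.

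These log2 fold changes changed sign, all but 2 without a call. Against MDSC in C12, Tap2 was 0.19 under upper quartile scaling and -0.30 to 0.12 with 1 library left out, the latter without C12 3. Tapbp was -0.078 and Calr -0.68 with the intron covariate. Calr was -1.23 without line libraries under 3% intron share (adjusted p = 0.014), -0.063 by limma-voom and -0.16 to 0.51 with 1 library left out, below 0 without C12 1 or C12 2. In ih_CTC, Calr was -0.024 under RLE scaling and by DESeq2, -0.21 with the intron covariate and -0.015 (without ih_CTC 1) to 0.36 with 1 library left out. In ih_DCTC, Tapbp was -0.29 and Calr -0.11 with the covariate, -0.30 and -0.22 without line libraries under 3% intron share, and from -0.27 to 0.74 and from -0.20 to 0.87 with 1 library left out, both lowest without ih_DCTC 1. In ih_STC_BM against MSC, Tap1 was 0.064 and Pdia3 0.15 without those libraries. In MDSC against MSC, Tapbp was 0.15, Erap1 -1.32 (adjusted p = 0.0391) and Calr 0.0086 with the covariate, and H2-D1 was -0.056 (without MSC 2) to 0.48 with 1 library left out.

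Upper quartile scaling moved the median of all genes by 0.27 in C12, 0.17 in ih_CTC and 0.22 in ih_DCTC against MDSC and by -0.13 in MDSC against MSC; RLE scaling moved it by -0.14 in ih_CTC and -0.13 in ih_DCTC. No paired analysis was possible because the labels carry no replicate numbers. With 2 or 3 libraries a group, the number of libraries limits what can be called. A lone library left in C12, ih_STC_BM or MSC is assumed to vary like the other groups.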
